A study of Mus musculus with 6 samples.

Results

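The cytochrome P450 genes described here are those with a standard P450 symbol in the array annotation, without the enzymes of steroid hormone synthesis (Cyp11a1, Cyp11b1, Cyp11b2, Cyp17a1, Cyp19a1 and Cyp21a1). The rule kept 84 genes, each measured by a single probe set, of 19505 named genes on the array. RNA came from whole adrenal glands of 6 female mice aged 2 months, hybridised to 1 Affymetrix whole-transcript array per animal. The 3 control mice were Mst1 flox/flox;Mst2 flox/flox without Cre, and the 3 mutant mice carried the same floxed alleles of both genes and Nr5a1-Cre, which is driven in steroid-producing cells. Every animal therefore carried the floxed alleles, and no group with Cre alone was analysed here. The glands also held medulla, capsule and vessels, and which cells had lost the genes was not measured here. The labels describe the animals as separate mice.

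P450 enzymes hold a haem group and use molecular oxygen and electrons from a partner protein to oxidise small, mostly fat-soluble molecules. Families CYP1, CYP2 and CYP3 chiefly oxidise drugs, toxins and lipids, CYP4 enzymes hydroxylate the far end of fatty acids and eicosanoids, and other families act on cholesterol, vitamin D or retinoic acid. The adrenal cortex is best known for its steroid-forming P450 enzymes, and liver is the main site of many of the genes below.

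The tissue label was checked first: the cortex genes Nr5a1, Star, Cyp11a1, Cyp21a1 and Hsd3b1 had a mean log2 signal between 18.26 and 18.36 in every animal. The mutated kinase gene Stk4 (MST1) measured 8.32, 8.66 and 8.94 in controls against 8.14, 8.36 and 8.46 in mutants, with overlap of the groups. Where its probes lie relative to the deleted part is not known here, so this value does not check the genotypes. Stk3 was not analysed here. Kidney tubule markers, 8 of 8, lay in the background range in both groups. Hepatocyte marker signal differed between animals within groups. The mean of 7 such markers was 6.77, 8.68 and 5.41 in controls 1 to 3 against 6.27, 8.93 and 6.48 in mutants 1 to 3. Of the 7, 4 had both group means in the background range, and the source of the signal was not tested. Of these 4, Ttr was above that range in control 2 (8.67) and mutant 2 (8.86), against 5.11 to 5.58 in the other animals. Apoa1, Fgb and Tat did not exceed it in any animal. Albumin (Alb), a defining marker, measured 14.06 in control 2 and 14.70 in mutant 2, against 6.63 to 10.98 in the other 4 animals. Fat signal also varied, with adipocyte list means (11 genes) of 8.64 to 10.99 in controls and 9.56 to 12.24 in mutants.

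Of the 84 genes, 18 had a mean signal above the array's background probe sets, and the same 18 genes did so in control and in mutant glands. The limit was 7.32, the highest log2 value of any of the 23 AFFX background probe sets on any array. It was applied to means, and single animals could lie below it. Cyp26b1 measured 6.71 in control 3 and 7.09 in mutant 3. Cyp2c23 measured 7.29 in control 1 and 7.06 in mutant 3. None of the other 66 was above the limit in either group mean, and for these a difference is one between signals not told apart from background. Nearest to the limit were Cyp2d40, inside at a mean of 7.42 over all animals, and Cyp4f18, outside at 7.12. Over all 22206 probe sets tested, 45.7% had a mean above the limit, against 21.4% of the P450 genes. The limit is a high one: background probe sets with a GC number of 8 to 18 reached at most 5.08, and those with a lower or higher GC number lay between 6.02 and 7.32. With 5.08 as the limit, 43 genes were above it in controls and 37 in mutants. Some crossed it by little, such as Cyp2b10 (means of 5.12 in controls and 5.02 in mutants). Cyp4a14 crossed the other way (5.03 and 5.16). The share over all probe sets at this limit was not taken, so these counts are not read as a difference between the groups. The GC content of the P450 probes was not used, and signals of different probe sets are no measure of relative RNA amounts.

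**Figure D1:**
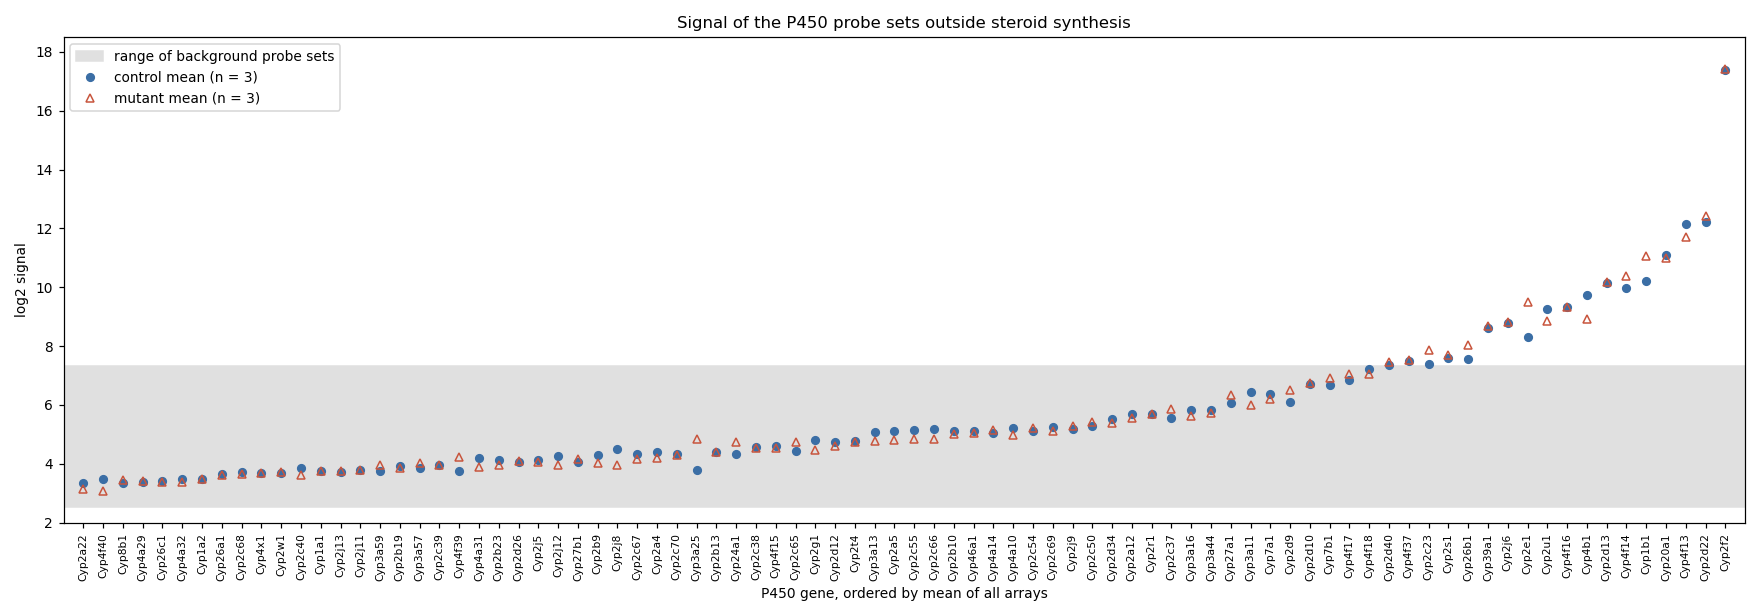
Mean log2 signal (vertical axis) of each of the 84 P450 genes (horizontal axis, ordered by the mean of all arrays), in control (circles) and mutant glands (triangles), n = 3 each. The grey band runs from the lowest to the highest background value, 2.53 to 7.32; 18 genes lie above it in both groups, and Cyp2f2 lies near 17.4.

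The genes above background spanned several families. They were 9 of 45 CYP2 genes (Cyp2c23, Cyp2d13, Cyp2d22, Cyp2d40, Cyp2e1, Cyp2f2, Cyp2j6, Cyp2s1 and Cyp2u1) and 5 of 16 CYP4 genes (Cyp4b1, Cyp4f13, Cyp4f14, Cyp4f16 and Cyp4f37). To these came Cyp1b1 of 3 CYP1 genes, Cyp26b1 of 3 retinoic acid genes, Cyp39a1 of 6 sterol genes, and Cyp20a1, an enzyme without a settled substrate. All 7 CYP3 genes and all 3 vitamin D genes lay in the background range. Subfamilies of at least 4 genes differed: 4 of 9 Cyp4f and 3 of 8 Cyp2d genes were above the limit, against 1 of 14 Cyp2c, 1 of 7 Cyp2j, 0 of 4 Cyp2a, 0 of 5 Cyp2b and 0 of 5 Cyp4a genes. Members of these subfamilies have close sequence relatives, and whether their probes also bind transcripts of a relative was not tested.

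Between mutant and control glands, 0 of the 84 P450 genes passed the test (limma, Benjamini-Hochberg adjusted p under 0.05 over 22206 probe sets), where 0.0721% of all probe sets did. The smallest adjusted p was 0.235, for Cyp4b1. At an unadjusted p under 0.05 there were 7 genes, or 8.33%, against 10.4% of all probe sets. Of these, 4 were higher (background 5.42%) and 3 lower (background 4.96%). The 3 mutants lay on one side of the 3 controls in 8 genes, 4 higher and 4 lower, or 9.52% against 16.4% of all probe sets. The median log2 change was -0.02 over the 84 genes and -0.01 over all probe sets, and 38 genes (45.2%) had a change above 0, against 48.0% of all probe sets. Each of these shares was near or below that of the whole array. The 95% interval of the log2 change lay between -1 and 1, a 2-fold change either way, for 13 of the 18 genes above background. It did so for 60 of the 66 genes in the background range too, where a narrow interval sets no limit on a change in RNA.

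**Figure D2:**
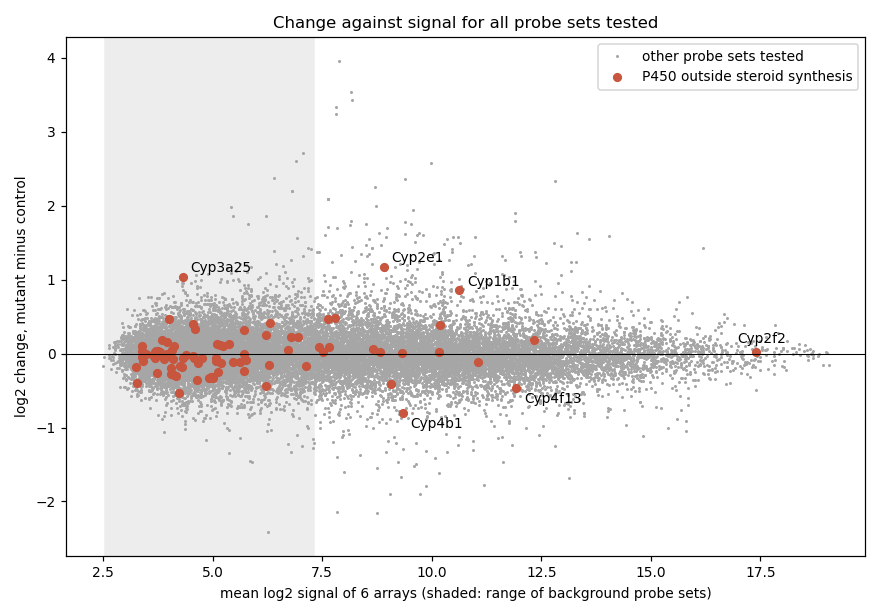
Log2 change, mutant minus control (vertical axis), against the mean log2 signal of the 6 arrays (horizontal axis) for the 22206 probe sets tested (grey) and the 84 P450 genes (red). The shaded span is the range of the background probe sets; P450 changes run from -0.80 (Cyp4b1) to 1.18 (Cyp2e1).

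Among CYP4 genes, Cyp4b1 and Cyp4f13 had lower signals in every mutant than in any control. Cyp4b1, which hydroxylates fatty acids and activates some plant and environmental toxins, measured 9.86, 9.81 and 9.55 in controls against 8.53, 9.10 and 9.17 in mutants. The groups did not overlap, and mutant 1 was the lowest. The log2 change was -0.80 (SE 0.20, 95% interval -1.27 to -0.34), a 1.75-fold difference that did not pass the test (limma adjusted p = 0.235). Cyp4f13, of a subfamily that hydroxylates leukotrienes and fatty acids, measured 12.07, 12.19 and 12.22 in controls against 11.56, 11.76 and 11.78 in mutants. Its log2 change of -0.46 (SE 0.14, 95% interval -0.79 to -0.13) did not pass either (limma adjusted p = 0.330), although the groups again did not overlap.

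Cyp4f14, a leukotriene omega-hydroxylase gene, lies next to Cyp4f13 among protein-coding genes of the RefSeq table, and its change had the opposite sign. It measured 10.05, 10.04 and 9.88 in controls against 9.998, 10.61 and 10.54 in mutants. Mutants 2 and 3 were above all controls, while mutant 1 lay among them. The log2 change was 0.39 (SE 0.19, 95% interval -0.05 to 0.83, limma adjusted p = 0.536), and 0.70 with the fibroblast list mean as a covariate. The difference between the changes of these neighbours was not tested. Cyp4f16, of the same subfamily, measured 9.44, 9.36 and 9.18 in controls against 9.37, 9.27 and 9.35 in mutants, a change of 0.00 with an interval from -0.33 to 0.33; its sign was negative with quantile normalization or with arrays shifted to a common median. Cyp4f37 had a mean of 7.51 over all animals.

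The other 11 CYP4 genes lay in the background range. Cyp4f39, which serves the skin lipid barrier, measured 3.95, 3.71 and 3.63 in controls against 4.05, 4.23 and 4.41 in mutants (log2 change 0.46, SE 0.16, limma adjusted p = 0.388). Cyp4a10, a peroxisome proliferator-inducible fatty acid hydroxylase of liver, measured 5.32, 5.24 and 5.14 in controls against 4.86, 5.09 and 5.01 in mutants (limma adjusted p = 0.622). Both had groups that did not overlap at signals within the background range, as had Cyp4b1 and Cyp4f13 above it, so that 3 of the 16 CYP4 genes were lower and 1 higher in this way, where 8.36% of all probe sets were lower and 8% higher. Over all 16 CYP4 genes the median log2 change was -0.03, and 8 were above 0.

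**Figure D3:**
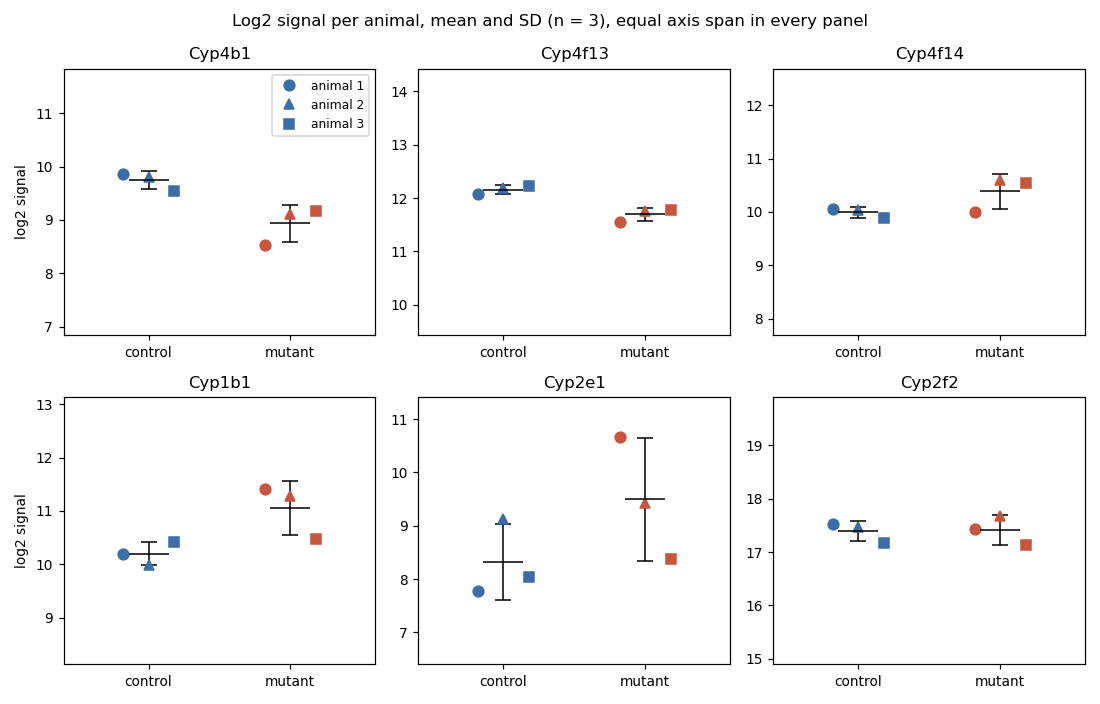
Log2 signal (vertical axis, the same span in every panel) of 6 P450 genes in each animal of the control and mutant groups (horizontal axis); bars show mean and SD, n = 3. The groups are apart for Cyp4b1, Cyp4f13 and Cyp1b1 and overlap for Cyp4f14, Cyp2e1 and Cyp2f2.

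Among CYP1 genes, Cyp1b1 was the only one above background. It oxidises oestradiol and polycyclic aromatic hydrocarbons and is a known target of the aryl hydrocarbon receptor AHR. It measured 10.19, 9.98 and 10.42 in controls against 11.42, 11.28 and 10.47 in mutants. All mutants were above all controls, but mutant 3 exceeded control 3 by little. The log2 change of 0.85 (SE 0.26, 95% interval 0.26 to 1.45), or 1.81-fold, did not pass the test (limma adjusted p = 0.315). With 1 animal left out it ran from 0.67 without mutant 1 (limma adjusted p = 0.562) to 1.15 without mutant 3 (limma adjusted p = 0.120). Fibroblast markers moved beside it: 8 of 9 had a change above 0, with list means of 9.69 to 10.21 in controls and 10.03 to 11.06 in mutants, and 1 of the 9 in the background range in both groups. Mutant 1 had the highest value of both. List means of 8 smooth muscle and pericyte genes (8.98 to 9.34 in controls, 9.44 to 9.87 in mutants) and of 7 endothelial genes (12.09 to 12.33, and 12.53 to 12.62) were higher in all mutants. Single genes were mixed: 6 of the 8 and 5 of the 7 had a change above 0. In the background range in both groups were 3 of the 8 and 0 of the 7. The list mean of 4 zona glomerulosa genes was lower in all mutants (13.50 to 13.79, and 12.73 to 13.37). With the fibroblast list mean as a covariate, chosen after seeing the data, the change of Cyp1b1 was 0.31 (limma adjusted p = 0.865). That of Cyp4b1 was -0.43 (limma adjusted p = 0.774). The list mean itself differed by 0.61 between mutant and control, so such a fit cannot separate it from the genotype. The part of other cells in these results was not tested further. In whole glands, fewer cells of a type and less RNA per cell cannot be told apart.

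The same AHR also induces Cyp1a1 and Cyp1a2, which oxidise polycyclic hydrocarbons and aromatic amines. Both lay in the background range. Cyp1a1 had group means of 3.74 and 3.74, with an interval of the change from -0.43 to 0.43. Cyp1a2 had means of 3.49 and 3.48. Ahr itself measured 5.02, 5.23 and 5.78 in controls against 5.57, 5.99 and 5.44 in mutants, in the background range too (log2 change 0.32, SE 0.24, limma adjusted p = 0.702).

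Promoters are shown for the 3 genes above background whose groups did not overlap and for Cyp2f2, whose signal was far above background in every animal. Each is the 250 bases before the transcription start in RefSeq (build GRCm38.p6), 5′ to 3′ on the strand of the gene. Capitals mark matches on either strand to AGGTCA (a short site bound by nuclear receptors such as NR5A1), GGAATG (the core of TEAD sites) or GCGTG (the core of AHR sites), motifs that share no overlap in these windows.
Cyp4b1, chr4:115647722-115647971, minus strand: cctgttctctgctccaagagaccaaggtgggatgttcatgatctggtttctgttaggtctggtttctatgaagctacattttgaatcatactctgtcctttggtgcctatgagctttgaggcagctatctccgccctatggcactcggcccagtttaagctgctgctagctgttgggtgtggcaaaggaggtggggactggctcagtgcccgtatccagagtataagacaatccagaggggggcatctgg
Cyp4f13, chr17:32947362-32947611, minus strand: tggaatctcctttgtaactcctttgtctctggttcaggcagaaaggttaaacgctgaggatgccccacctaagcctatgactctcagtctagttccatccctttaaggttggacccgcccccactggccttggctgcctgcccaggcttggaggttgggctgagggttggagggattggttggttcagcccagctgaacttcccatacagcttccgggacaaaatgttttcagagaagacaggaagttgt
Cyp1b1, chr17:79715062-79715311, minus strand: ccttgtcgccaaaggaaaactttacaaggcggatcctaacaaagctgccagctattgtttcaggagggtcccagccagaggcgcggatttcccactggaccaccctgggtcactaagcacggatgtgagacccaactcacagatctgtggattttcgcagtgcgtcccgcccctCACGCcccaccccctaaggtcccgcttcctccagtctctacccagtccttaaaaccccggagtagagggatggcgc
Cyp2f2, chr7:27119705-27119954, plus strand: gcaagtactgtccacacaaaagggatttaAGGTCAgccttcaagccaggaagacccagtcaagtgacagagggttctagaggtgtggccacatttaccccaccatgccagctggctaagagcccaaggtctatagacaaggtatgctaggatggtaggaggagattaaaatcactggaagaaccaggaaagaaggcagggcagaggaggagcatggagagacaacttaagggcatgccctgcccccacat
Cyp1b1 held 1 match to GCGTG, on the opposite strand, from 76 to 72 bases before the start. Cyp2f2 held 1 match to AGGTCA, from 221 to 216 bases before the start, and Cyp4b1 and Cyp4f13 held no match to any of the motifs in this window. Among 32841 windows of this length, 14.0% held AGGTCA, 12.6% GGAATG and 28.2% GCGTG. Of the 74 windows of 67 P450 genes, 21.6% held AGGTCA, 10.8% GGAATG and 18.9% GCGTG. A match is a description of letters and not a binding site.

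Among CYP2 genes, Cyp2f2 gave a signal far above background in every gland. Its enzyme is known from airway club cells, where it turns naphthalene into a toxic product. It measured 17.52, 17.47 and 17.17 in controls against 17.42, 17.68 and 17.12 in mutants. The groups overlapped fully, with a log2 change of 0.02 (limma, SE 0.19, 95% interval -0.41 to 0.45, adjusted p = 0.983), whose sign was negative with arrays shifted to a common median. A change beyond 1.5-fold lies outside this interval. Whether the probe set was near saturation was not tested. Its neighbours among protein-coding genes, Cyp2a12 and Cyp2t4, lay in the background range, with means of 5.62 and 4.75 over all animals.

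Cyp2e1, which oxidises ethanol and acetone, had the widest spread of the P450 genes above background. It measured 7.79, 9.13 and 8.04 in controls against 10.67, 9.43 and 8.38 in mutants. Mutant 3 lay below control 2, so the groups overlapped, and mutant 1 was the highest by over 1 log2 unit. The difference of 1.18 (log2, SE 0.56, 95% interval -0.10 to 2.45) was the largest positive one among the 84 genes and did not pass (limma adjusted p = 0.523). Without mutant 1 it was 0.59, without mutant 3 1.73, with the adipocyte list mean as a covariate 0.79 and with the fibroblast list mean 0.31. Adipoq, a defining adipocyte gene, measured 7.24, 10.70 and 11.78 in controls against 14.09, 10.69 and 9.42 in mutants, and was thus also highest in mutant 1, while control 3 was high in Adipoq and not in Cyp2e1. Of the 11 adipocyte markers 10 had a change above 0, and 2 had both group means in the background range.

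Of the remaining CYP2 genes above background, 0 passed the test. Cyp2d22, of a drug-oxidising subfamily, measured 12.27, 12.43 and 11.99 in controls against 12.10, 12.46 and 12.70 in mutants (log2 change 0.19, SE 0.20, limma adjusted p = 0.80). Cyp2d13 measured 10.34, 10.02 and 10.12 in controls against 10.55, 9.69 and 10.31 in mutants, with an interval of the change from -0.51 to 0.55 around 0.02; the sign was negative with arrays shifted to a common median. Cyp2u1, which hydroxylates long-chain fatty acids, measured 9.41, 9.39 and 9.02 in controls against 9.39, 8.76 and 8.45 in mutants (log2 change -0.41, SE 0.25, 95% interval -0.98 to 0.16, limma adjusted p = 0.636). Mutants 2 and 3 were below all controls and mutant 1 was not; the change was -0.67 without mutant 1 and -0.20 without mutant 3.

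Epoxygenases of arachidonic acid are the other known group in CYP2. Cyp2j6 varied little, with all 6 animals between 8.76 and 8.88 and an interval of the change from -0.29 to 0.33. Cyp2c23 measured 7.29, 7.35 and 7.54 in controls against 8.10, 8.43 and 7.06 in mutants (log2 change 0.47, SE 0.32, 95% interval -0.26 to 1.21, limma adjusted p = 0.677), so that mutant 3 was below all controls and the other mutants above them. Cyp2s1, an AHR-inducible enzyme of epithelia, had group means of 7.61 and 7.70, and Cyp2d40 of 7.37 and 7.46. Among CYP2 genes in the background range, Cyp2j8 (limma adjusted p = 0.405) was the only one at an unadjusted p under 0.05. It measured 4.75, 4.44 and 4.31 in controls against 3.97, 3.69 and 4.24 in mutants, without overlap. Cyp2d9 measured 5.83, 6.22 and 6.25 in controls against 6.54, 6.16 and 6.85 in mutants (limma adjusted p = 0.550). Cyp2a5, a coumarin hydroxylase, measured 5.22, 5.13 and 4.97 in controls against 4.72, 5.02 and 4.65 in mutants (limma adjusted p = 0.558), and both genes had overlapping groups. All 4 Cyp2a and all 5 Cyp2b genes had changes below 0, from -0.31 to -0.02, each at background level with a limma adjusted p of at least 0.558. These subfamilies were named after their values were seen, and 48% of all probe sets had a change above 0. Whether their probes share transcripts was not tested, so the signs are not counted as separate results.

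Cyp20a1, of a family of its own, measured 11.07, 11.20 and 11.02 in controls against 10.85, 11.04 and 11.08 in mutants, with overlapping groups (log2 change -0.11, limma adjusted p = 0.849; 0.04 with the fibroblast list mean as a covariate).

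**Figure D4:**
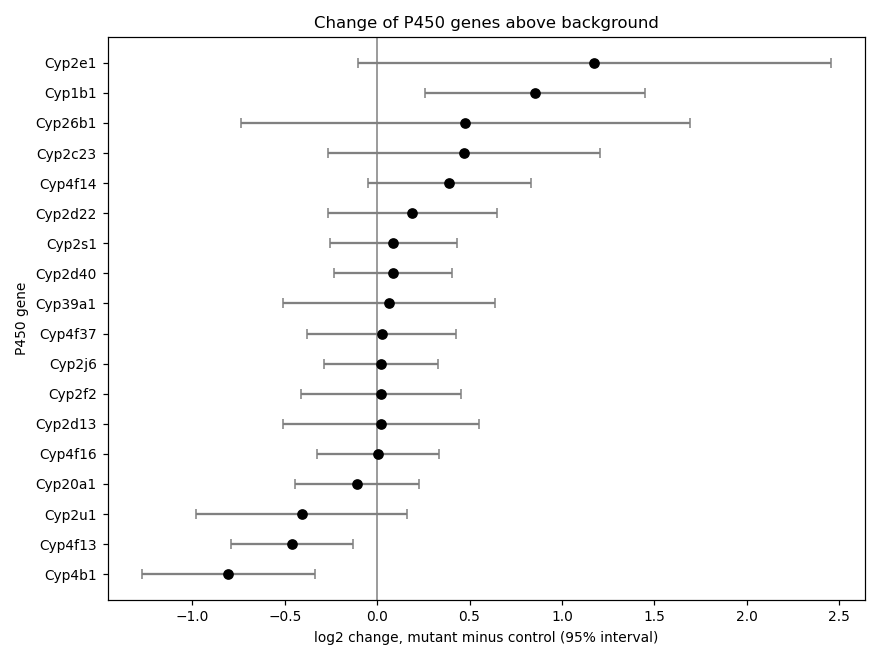
Log2 change, mutant minus control, with its 95% interval from limma (horizontal axis), for the 18 P450 genes above background (vertical axis, ordered by change). The interval excludes 0 for Cyp1b1, Cyp4f13 and Cyp4b1 before adjustment for multiple tests, and none of the 18 passed after it.

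Of these 18 genes 14 had a change above 0, of which Cyp4f16, Cyp2d13, Cyp2f2, Cyp2j6, Cyp4f37, Cyp39a1, Cyp2d40 and Cyp2s1 had changes below 0.1. Over all 10149 probe sets above the limit 46.3% had a change above 0. At an unadjusted p under 0.05 there were 3 of the 18, or 16.7%, against a background of 13.1% among probe sets above the limit. The groups were apart for the same number of genes, against a background of 22.2%.

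CYP3 genes are known chiefly from liver and gut, and in 3 of the 7 control 2 and mutant 2 were the highest of their groups. Cyp3a11, a main drug-oxidising enzyme of mouse liver, measured 6.12, 7.44 and 5.75 in controls against 5.20, 7.42 and 5.37 in mutants. Control 2 and mutant 2 were above the background limit and the other 4 animals were below it. These were the animals of high albumin signal. The change was -0.44 (SE 0.63, limma adjusted p = 0.860). Cyp3a25 measured 3.32, 4.51 and 3.58 in controls against 4.42, 5.48 and 4.61 in mutants, with the top animal of each group again numbered 2 (log2 change 1.04, SE 0.36, limma adjusted p = 0.385). With the hepatocyte list mean as a covariate its change was 0.94 (limma adjusted p = 0.226), at a signal in the background range.

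Some other P450 genes of liver showed the same animals on top, and they are named after their values were seen. Cyp2c69 measured 4.56, 6.27 and 4.93 in controls against 4.70, 6.04 and 4.66 in mutants. Cyp2a12 measured 5.44, 6.27 and 5.34 in controls against 5.36, 6.15 and 5.19 in mutants. Cyp2c37 measured 5.42, 6.08 and 5.17 in controls against 5.80, 6.06 and 5.75 in mutants. Not all P450 genes of liver did so. Cyp2e1 was highest in control 2 and mutant 1, and Cyp7a1 was highest in control 3 and mutant 3. In all, control 2 was the highest control and mutant 2 the highest mutant in 21 of the 84 genes (25%), against 10.8% of all probe sets. Of the 21, Cyp2j6 and Cyp2s1 alone had a mean above background. The 21 genes were taken by the order of these animals, so a likeness to the hepatocyte markers follows from that choice. Of the 7 hepatocyte markers, 4 lay in the background range in both group means. Their list means ranged from 5.41 to 8.68 in controls and 6.27 to 8.93 in mutants. The source of the shared pattern was not tested. Leaving out both animals numbered 2 left 0 genes past the test, as did the hepatocyte list mean as a covariate; at an unadjusted p under 0.05 there were then 7 and 9 of the 84.

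**Figure D5:**
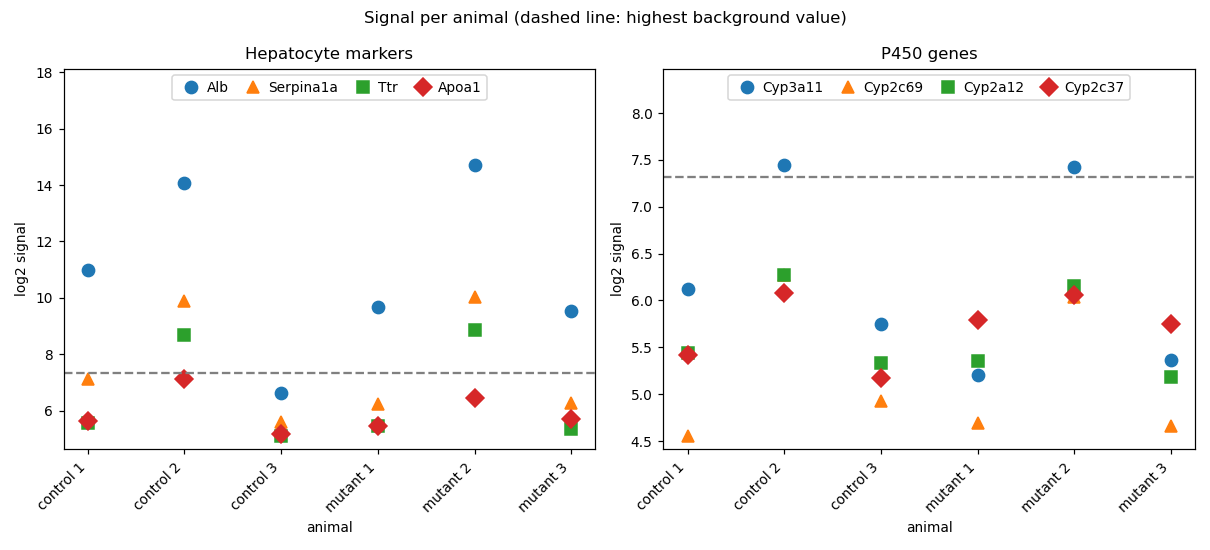
Log2 signal (vertical axis) in each animal (horizontal axis) of 4 hepatocyte markers (left) and of 4 P450 genes (right); the dashed line is the highest background value, 7.32. Control 2 and mutant 2 have the highest signals of their groups in both panels, with Alb at 14.06 and 14.70 and Cyp3a11 at 7.44 and 7.42.

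Of the 6 P450 genes that act on cholesterol and its products, 0 passed the test. Cyp39a1, which hydroxylates oxysterols on the way to bile acids, measured 8.84, 8.76 and 8.26 in controls against 8.19, 8.89 and 8.96 in mutants (log2 change 0.06, SE 0.25, 95% interval -0.51 to 0.64). Cyp7b1, which hydroxylates oxysterols and dehydroepiandrosterone, measured 6.76, 6.72 and 6.56 in controls against 6.89, 6.89 and 6.93 in mutants. Its groups did not overlap within the background range (log2 change 0.22, SE 0.14, limma adjusted p = 0.640). Cyp27a1, a mitochondrial sterol hydroxylase, measured 6.05, 5.58 and 6.60 in controls against 6.54, 6.67 and 5.79 in mutants (log2 change 0.26, SE 0.31, limma adjusted p = 0.834). The change was -0.33 with the fibroblast list mean as a covariate and -0.16 without both animals numbered 2. The rate-limiting enzyme of bile acid synthesis, Cyp7a1, had group means of 6.36 and 6.21, and Cyp46a1, the cholesterol hydroxylase of brain, of 5.10 and 5.04. Cyp8b1, which directs bile acid synthesis to cholic acid, lay at 3.39 over all animals. Of 3 oxysterol partner genes measured, 0 passed; Hsd3b7, an enzyme of bile acid synthesis, had a change of -0.35 (log2, SE 0.17, with a limma adjusted p = 0.536), and Ch25h, which makes an oxysterol, one of -0.11 (limma adjusted p = 0.892; 0.20 with the fibroblast list mean as a covariate).

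The vitamin D genes lay in the background range. Cyp24a1, which inactivates vitamin D hormone, measured 4.35, 4.37 and 4.30 in controls against 4.61, 4.64 and 4.97 in mutants, with no overlap (log2 change 0.40, SE 0.15, limma adjusted p = 0.428). Cyp27b1, which makes the hormone, had group means of 4.06 and 4.16. Cyp2r1, which makes its precursor, had a mean of 5.70 over all animals.

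Retinoic acid is made by aldehyde dehydrogenases and broken down by CYP26 enzymes. Cyp26b1 measured 8.13, 7.80 and 6.71 in controls against 9.15, 7.83 and 7.09 in mutants, and the groups overlapped (log2 change 0.48, SE 0.53, limma adjusted p = 0.812). The change was -0.09 without mutant 1 and -0.19 with the fibroblast list mean as a covariate. Cyp26a1 and Cyp26c1 lay in the background range, with means of 3.65 and 3.39. Of 8 retinoid partner genes measured, 0 passed the test, 2 had an unadjusted p under 0.05 (10.4% of all probe sets did) and 3 had all mutants above all controls (8% did). Of the 8, 4 had a change above 0 and 4 below. Those below 0 were Rdh10, which oxidises retinol (-0.56, limma adjusted p = 0.534), Aldh1a3, the retinoic acid binding protein gene Crabp1 (-0.08) and the retinaldehyde reductase gene Dhrs3 (-0.02), and Crabp2 was above 0 at background level (0.60, limma adjusted p = 0.532). Stra6, the cell-surface receptor for retinol uptake, measured 7.45, 7.51 and 7.87 in controls against 9.77, 10.06 and 8.26 in mutants. Its difference of 1.75 (log2, SE 0.42) did not pass (limma adjusted p = 0.205). Without mutant 3, the mutant nearest the controls, it was 2.30 and passed (limma adjusted p = 0.0306). These were the highest change and the smallest adjusted p of Stra6 among the 19 alternative fits. The lowest change, 0.96, came with the fibroblast list mean as a covariate (limma adjusted p = 0.766).

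Of 3 retinaldehyde dehydrogenase genes, Aldh1a1 and Aldh1a2 lay well above background, and Aldh1a3 (group means 7.37 and 7.25, log2 change -0.11) lay at the limit. Aldh1a1, a retinaldehyde dehydrogenase, measured 12.79, 12.63 and 12.26 in controls against 13.84, 13.38 and 12.94 in mutants, without overlap (log2 change 0.83, SE 0.25, limma adjusted p = 0.315). With the fibroblast list mean as a covariate it was 0.51 (limma adjusted p = 0.838). Aldh1a2, another such enzyme, measured 11.78, 11.21 and 11.73 in controls against 11.995, 11.79 and 12.29 in mutants (log2 change 0.45, SE 0.21, limma adjusted p = 0.504). Its groups did not overlap, though control 1 and mutant 2 lay close together. Rarb, counted among the regulators below, is a retinoic acid receptor whose gene is itself a target of retinoic acid. It measured 9.49, 9.01 and 8.57 in controls against 9.99, 9.49 and 9.55 in mutants (log2 change 0.65, SE 0.25, limma adjusted p = 0.423).

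Redox partners and haem genes did not pass in any case, 0 of 10 measured. Cyb5r1, a cytochrome b5 reductase, had group means of 8.26 and 7.86 (log2 change -0.40, SE 0.17, limma adjusted p = 0.472), and Cyb5r3, a second such enzyme, of 17.33 and 17.06 (limma adjusted p = 0.791). With the fibroblast list mean as a covariate these changes were -0.17 and 0.33, so that the sign of Cyb5r3 turned. Hmox1, which breaks down haem, had means of 11.98 and 12.30 (limma adjusted p = 0.683). Alas1, the first enzyme of haem synthesis, had means of 18.18 and 18.26, and Fdx1, the electron carrier of mitochondrial P450 enzymes, of 17.47 and 17.28. Por and Fdxr were not analysed here. Of 17 regulators of P450 genes 0 passed. Nr0b2, a nuclear receptor that represses bile acid synthesis, measured 12.98, 13.14 and 12.72 in controls against 12.13, 12.86 and 12.14 in mutants (log2 change -0.57, SE 0.23, limma adjusted p = 0.446). The liver sensors of foreign compounds and bile acids differed in level: Nr1i2 and Nr1i3 lay in the background range, and Nr1h4 did not.

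P450 genes outside these rules gave no call either. Cyp51, of cholesterol synthesis, differed by -0.31 (log2, SE 0.24) with a limma adjusted p of 0.721. Ptgis, prostacyclin synthase, had one of -0.29, and Tbxas1, thromboxane synthase, one of 0.20 (-0.16 with the fibroblast list mean as a covariate). Of the 5 P450 genes of steroid synthesis measured, 0 passed, and 4 were above background. Cyp21a1 had group means of 19.14 and 18.98 (log2 change -0.16, SE 0.14, limma adjusted p = 0.755), Cyp11b2 a change of -0.24 and Cyp11a1 one of 0.12. Cyp17a1, which the mouse adrenal is known to lack, lay in the background range at 4.87 and 5.20.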

How the data were processed

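The deposited table holds log2 signals per probe set, 1 column per animal, with the log2 scale read from the values. Transcriptome Analysis Console 4.0 is named in the submitters' processing notes; the authors' background correction, summarisation and normalization: not given in the sources used here. Control probe sets (6640) were left out, which left 22206. The platform annotation gave 1 symbol to 19572 of these and none to 2634. All 84 P450 genes matched RefSeq's gene table by Entrez identifier. Mutant minus control was fitted over all 6 arrays in limma 3.58.1 (lmFit, then eBayes; R 4.3.3), without covariates or a filter, with Benjamini-Hochberg adjustment over all probe sets and a threshold of 0.05. SEs and 95% intervals use the moderated variance. Array medians lay between 6.76 and 6.83, so no further normalization was done. The procedure was tested on simulated data. The number of animals limits the precision.

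Genes with values per animal were the 12 of smallest unadjusted p, the 10 of highest mean, any that crossed the background limit in only 1 group (there were 0), and Cyp1b1, Cyp2e1, Cyp2f2, Cyp4b1, Cyp7b1, Cyp26b1 and Cyp27a1. Pathway and marker lists were to give up to 3 of smallest p, and Por, Fdxr and Ahr were always to be named. Marker genes did not follow this throughout. Alb, Serpina1a, Ttr and Apoa1 were not those of smallest p in the hepatocyte list, and several lists are given by their means. Cyp3a11, Cyp2c69, Cyp2a12, Cyp2c37 and the other genes given with values were named after their values were seen. The members and lists were chosen with earlier results of these data known. Across all probe sets, same-numbered animals did not deviate together (r = -0.09, 0.08 and -0.07), so the numbers were not taken as pairs. Among the 84 genes, both animals numbered 2 were the highest of their groups in 25%, against 10.8% of all probe sets. Promoter motifs were searched on both strands of 250 bases before each RefSeq start. Alternatives were other normalizations, filters and variance models, array weights, covariates, a replicate block and each animal left out.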

Additional observations from a re-analysis of the deposited data

How the results depend on the processing

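The count of 0 P450 genes past an adjusted p of 0.05 (limma) held under all 19 alternative fits, with 3 to 9 genes at an unadjusted p under 0.05; by that unadjusted threshold the main count is 7. The smallest adjusted p of any P450 gene lay between 0.112 (only probe sets above background) and 0.637 (fibroblast list as covariate). Over the array, 16 probe sets passed, and 0 to 175 under the alternatives (0 with the fibroblast list, 175 with a trended, robust variance). Genes with a change above 0 numbered 38, and 30 to 47 with 1 animal left out; among the probe sets above background there were 14. With 1 animal left out the median change lay between -0.08 and 0.02. A block for the replicate number is not supported by the correlations across all probe sets. With it, 0 P450 genes passed, with a smallest limma adjusted p of 0.160, and 1 probe set of the array did. The background limit set by the probe sets of GC number 8 to 18 was chosen after seeing the data. So were the hepatocyte and fibroblast covariates and leaving out both animals numbered 2. With that limit, 43 genes in controls and 37 in mutants were above it, and the share over all probe sets was not taken. Averaging the probe sets of a gene changed nothing, since each gene had 1.

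Of the named genes, 9 turned sign under some setting, from main changes between -0.27 (Cyb5r3) and 0.48 (Cyp26b1), and no P450 gene passed the test in doing so. Cyp2f2 was -0.0297 with array weights, -0.00701 with a common median, -0.0315 with the fibroblast list, -0.0100 with the hepatocyte list and -0.0696 without both animals numbered 2. Cyp2d13 was -0.0271 with the adipocyte list, -0.0264 with the intron signal, -0.0183 with array weights, -0.00714 with a common median and -0.111 with the fibroblast list. Cyp4f16 was -0.0254 with array weights, -0.0243 with a common median and -0.00479 with quantile normalization. With the fibroblast list, turned changes were 0.0423 (Cyp20a1), -0.193 (Cyp26b1), -0.33 (Cyp27a1), 0.330 (Cyb5r3), -0.163 (Tbxas1) and 0.201 (Ch25h). Cyp27a1 was -0.164 without both animals numbered 2, and Ch25h 0.00220 with the adipocyte list. With 1 animal left out, lowest and highest changes were -0.113 and 0.164 for Cyp2f2, -0.161 and 0.267 for Cyp2d13, -0.0709 and 0.0593 for Cyp4f16, -0.0855 and 0.943 for Cyp26b1 and -0.268 and 0.0810 for Ch25h. The cause of these turns was not tested.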

Other observations

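Some P450 genes fell outside the symbol pattern and are given here as values, all within the background range. Cyp4a12a and Cyp4a12b, near-identical neighbours of the fatty acid hydroxylase cluster, had changes of opposite sign. Cyp4a12a measured 3.86, 3.50 and 3.67 in controls against 3.33, 3.42 and 3.36 in mutants, and Cyp4a12b 4.30, 4.26 and 4.403 in controls against 5.19, 4.82 and 4.89 in mutants. Their limma unadjusted p-values over all 6 animals were 0.0749 and 0.00305, and neither passed after adjustment (adjusted p = 0.536 and 0.211). Neither pair of groups overlapped. The annotated Cyp4b1 pseudogene Cyp4b1-ps2 measured 5.69, 5.45 and 5.13 in controls against 4.57, 5.35 and 4.55 in mutants, so that its groups overlapped. Whether probes of such close copies bind each other's transcripts was not tested.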
